A study of Macaca mulatta with 49 samples.

Results

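The 10 genes described here, CCR7, CXCR4, CXCR5, CXCR3, CXCR6, CCR2, CCR4, CCR6, CCR9 and CCR10, encode chemokine receptors carried by subsets of T cells. They were chosen by gene symbol, and the array held 26 probes with one of these symbols, among 20046 genes that had a probe with 1 symbol. A gene was counted as detected in a cell type where 6 or more of the 24 samples of that type gave a probe of it a detection p-value under 0.05. By that rule 7 of the 10 genes were detected in CD8 cells, 7 in CD4 cells and 8 in either, against 9350 genes in all that were detected in either.

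Chemokine receptors are G protein-coupled receptors of the cell surface. A T cell moves along a gradient of the chemokine that its receptor binds, so the set of receptors it carries helps to decide whether it enters a lymph node, a B cell follicle, skin, gut or inflamed tissue. Central memory T cells (TCM) are the memory cells that circulate through lymph nodes, and CCR7 is commonly part of their definition. The gate used to sort them is not given in the labels.

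TCM were sorted from blood mononuclear cells of 12 rhesus macaques (Macaca mulatta), and their RNA was hybridised to human Illumina BeadChips. In the anti-IL-15 arm, 6 animals received an antibody against interleukin 15, a cytokine on which NK (natural killer) cells and memory CD8 T cells depend, and in the IgG1 arm 6 animals received an IgG1 control antibody. CD8 TCM and CD4 TCM were taken from every animal after and before treatment, which gives 8 groups of 6 samples, with 1 of the 48 samples hybridised on 2 arrays that were averaged. The labels give no dose, no time since treatment and no age of the animals, and the antibody is the only treatment they name.

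The labelled cell types were borne out by CD8A, which encodes the alpha chain of CD8: its normalized log2 intensity lay between 12.37 and 13.31 in CD8 samples and between 4.66 and 7.17 in CD4 samples. At these lower readings CD8A was still detected in 19 of 24 CD4 samples, beside 24 of 24 CD8 samples. CD8B, the beta chain, was detected in 20 of 24 CD8 samples and in 0 of 24 CD4 samples. The probe for CD4 itself was detected in 0 of 24 CD8 samples and in 1 of 24 CD4 samples, so CD4 identity rests on the labels and on the low CD8 chains. Median intensity per array ran from 88 to 108, and 24.2% to 29.0% of probes were detected in CD8 samples and 25.4% to 31.5% in CD4 samples. The sort gave 23000 to 116000 CD8 cells and 197000 to 958000 CD4 cells per sample, ranges that do not overlap. Cell type and cell number therefore cannot be told apart. Compared over genes, the samples least like the others of their cell type were CD8 TCM of anti-IL-15 animal 4 after treatment (median r = 0.955) and, in the anti-IL-15 arm, both CD4 samples of animal 3 (0.962 after and 0.955 before treatment).

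Detection came first, because the probes were made for human genes. CXCR3, the receptor for the interferon-induced chemokines CXCL9 and CXCL10, was detected in 1 of 24 CD8 samples and 2 of 24 CD4 samples. CXCR6, the receptor for CXCL16, was detected in 0 of 24 CD8 samples and 0 of 24 CD4 samples. Neither was tested, and a dark human probe on macaque RNA gives no measure of how much transcript was there. CCR4 was below the rule in CD8 cells (5 of 24 samples) and passed in CD4 cells (13 of 24), while CCR10 passed in CD8 cells (18 of 24) and fell short in CD4 cells (2 of 24).

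**Figure D1:**
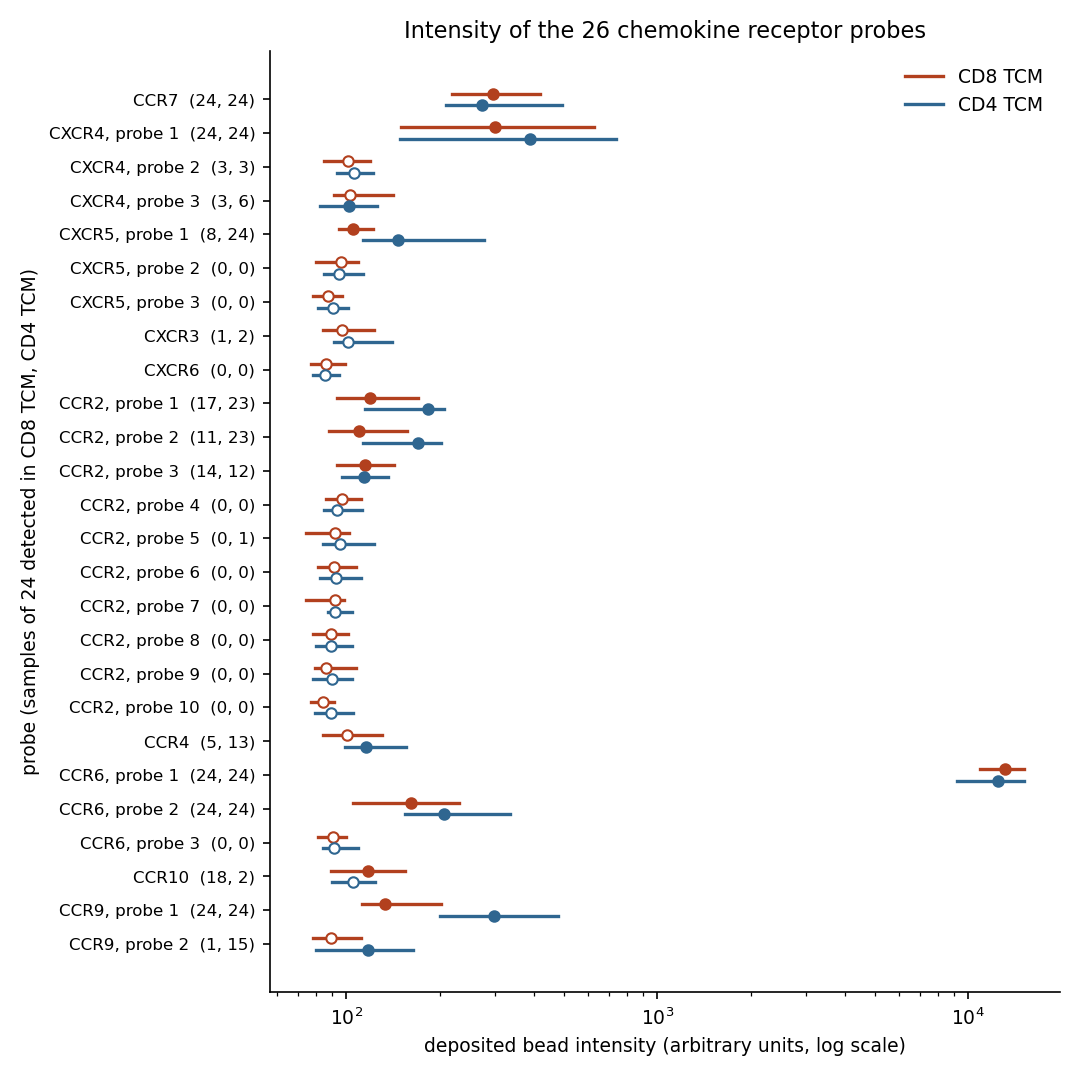
Deposited bead intensity of the 26 probes on a log axis in CD8 (red) and CD4 TCM (blue), with lines from the lowest to the highest of 24 samples, a point at the median, filled where the probe passed the detection rule, and the number of samples with detection beside the name. Most probes sit close to background, and 1 CCR6 probe lies at 10865 to 15086 units in CD8 TCM and 9203 to 15061 in CD4 TCM.

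Probes of a gene behaved differently. Of 10 CCR2 probes, 3 passed in either cell type, as did 2 of 3 for CXCR4, 2 of 3 for CCR6, 1 of 3 for CXCR5 and 2 of 2 for CCR9. Of several passing probes the brightest was tested and the others are given beside it. The tested CCR6 probe was brighter than 99.5% of all probes in every sample, while the other passing CCR6 probe read 105 to 231 units in CD8 TCM and 154 to 336 in CD4 TCM. Such intensities belong to the probe as much as to the gene, so levels are compared between samples and not between genes.

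The first comparison asked how CD8 TCM differ from CD4 TCM of the same animals. Before treatment, CCR10 and CCR7 were higher in CD8 TCM, and CCR9, CCR2, CXCR5 and CCR4 were lower, while CXCR4 and CCR6 did not pass the test. After treatment the same 6 genes passed in the same directions, in other samples of the same animals. At each time the animals of both antibody arms were pooled for this comparison. The count higher in CD8 TCM was 2 of 8 before treatment, against 15.3% of all 9350 genes tested, and 2 of 8 after treatment, against 17.2%. The count lower was 4 of 8 at both times, against 20.8% of all genes before treatment and 24.5% after it. CCR10 and CCR4 entered these counts only through the cell type in which they were higher. The stricter filter on dim probes dropped both and left 4 of 6 members past the test at each time. Of all 6968 genes under that filter, 3221 passed before treatment and 3671 after it. In either direction, 36.1% of all genes passed before treatment and 41.7% after it (limma with the animal as a block, Benjamini-Hochberg over all genes). The median difference of the 8 members was −0.21 before and −0.29 after treatment, beside medians of 0.01 and −0.01 over all genes. In bulk samples, fewer cells with a receptor and less of its RNA per cell cannot be told apart.

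Among the receptors of lymphoid tissue, CCR7 binds CCL19 and CCL21 and brings T cells into lymph nodes. Before treatment its log2 intensity ran from 7.33 over a median of 7.88 to 8.71 in CD8 TCM, and from 6.97 over 7.55 to 8.16 in CD4 TCM. The ranges overlapped, and CCR7 was higher in the CD8 sample of 11 of 12 animals. The difference was 0.46 ± 0.10 (SE), a 1.37-fold higher level in CD8 TCM with an adjusted p of 0.00125. After treatment it was 0.51 ± 0.14 (adjusted p = 0.00784) over both antibody arms, with CD8 above CD4 in 9 of 12 animals. CD8 minus CD4 then ran from 0.43 to 1.13 in IgG1 animals and from −0.80 to 0.97 in anti-IL-15 animals. The 3 animals with CD8 below CD4 were anti-IL-15 animals 3 (−0.80), 5 (−0.0033) and 6 (−0.10). Over all genes, the CD4 samples of animal 3 were the least like the other CD4 samples. With 1 animal left out at a time the pooled difference ran from 0.45 to 0.63, the latter without animal 3. Whether the CCR7 difference after treatment depends on the antibody was not tested. Among the 3 detected of 7 other naive T cell markers, NOSIP and ACTN1 were higher and LEF1 was lower in CD8 TCM at both times. The 3 genes summed to 2463 to 4193 units in CD8 TCM and 1947 to 3053 in CD4 TCM before treatment. MAL and LRRN3 of that list did not pass detection, and the part of naive cells in the CCR7 difference was not tested.

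CXCR5 binds CXCL13 and brings T cells, follicular helper cells above all, to B cell follicles. Its passing probe read 4.71, 5.01 and 5.41 (lowest, median and highest) in CD8 TCM before treatment and 5.18, 5.93 and 6.28 in CD4 TCM. It was detected in 6 of 12 CD8 samples and in 12 of 12 CD4 samples, and every animal had the lower value in its CD8 sample. CD8 TCM were 1.74-fold lower, with a log2 difference of −0.80 ± 0.12 (SE) and an adjusted p of 2.67e-05 in limma. With 6 of 12 CD8 samples detected, that size is uncertain. After treatment the CD8 samples read 4.66 to 5.38 and the CD4 samples 5.58 to 7.18. The ranges no longer overlapped (adjusted p = 4.53e-07), but 2 of 12 CD8 samples were detected against 12 of 12 CD4 samples, so no size is given for that time. CXCR5 is also a B cell receptor: the 5 detected of 10 B cell markers summed to 353 to 773 units in CD8 TCM and 218 to 344 in CD4 TCM before treatment. Within that list CD79B (2.06) and CD79A (0.61) were higher in CD8 TCM and CR2 was lower (−1.25), while BLK, PAX5, FCRL1 and BANK1 did not pass detection. The part of B cells in the CXCR5 difference was not tested.

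CXCR4 is the receptor for CXCL12, which is made in bone marrow and lymphoid stroma. It ran from 6.43 over 7.63 to 8.68 in CD8 TCM before treatment and from 6.13 over 7.72 to 8.71 in CD4 TCM. The groups overlapped over nearly their whole range, and 4 of 12 animals had the higher value in CD8. The difference was −0.03 with a 95% confidence interval of −0.29 to 0.24 before treatment and −0.17 (−0.41 to 0.07) after it, with adjusted p of 0.895 and 0.242.

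**Figure D2:**
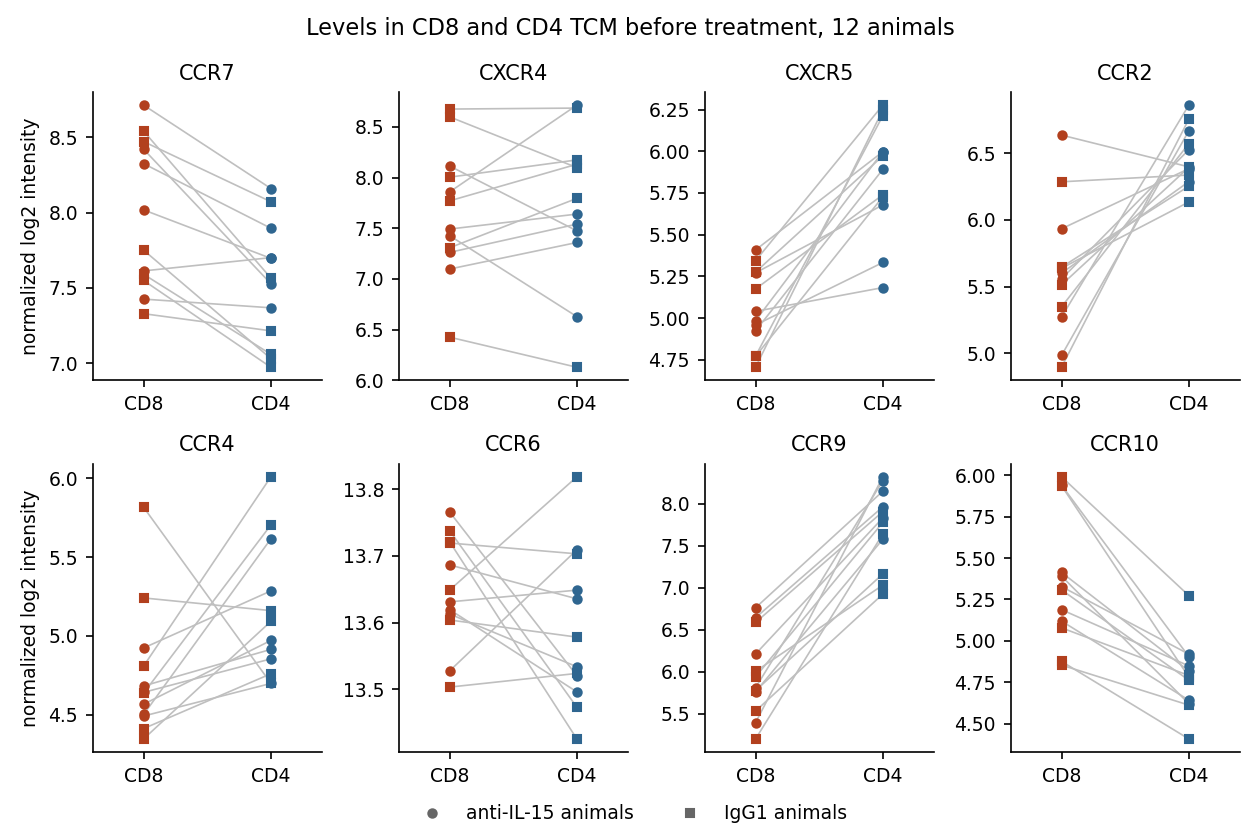
Normalized log2 intensity of the 8 tested genes before treatment in CD8 TCM (red, left) and CD4 TCM (blue, right), with a grey line joining the 2 samples of an animal. CCR9 runs from 5.20 to 6.76 in CD8 and from 6.92 to 8.32 in CD4 without overlap, and within each of CXCR5, CCR2 and CCR10 the lines slope one way in at least 11 of 12 animals.

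CCR2 binds CCL2 and draws monocytes and effector or memory T cells to inflamed tissue. On the tested probe CD8 TCM read 4.90, 5.58 and 6.63 (lowest, median and highest) before treatment and CD4 TCM 6.13, 6.40 and 6.86. CD8 TCM were the more spread, and 11 of 12 animals had the lower value in CD8. The difference was −0.85 ± 0.16 (SE), 1.81-fold lower in CD8 TCM (adjusted p = 0.000248), and after treatment −1.10 ± 0.19 (adjusted p = 0.000156).

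The probes of CCR2 disagreed. A second probe on the same RefSeq transcript gave −1.03 ± 0.17 before treatment (adjusted p = 0.000101) and −1.23 ± 0.19 after it (5.81e-05). The third passing probe, designed on another CCR2 transcript, gave 0.20 ± 0.12 (adjusted p = 0.216) before and 0.23 ± 0.15 (0.227) after treatment, with the higher value in CD8 in 9 of 12 animals at each time. The lower CCR2 reading in CD8 TCM therefore holds for 2 of the 3 probes with signal. Monocyte and dendritic cell markers ran the other way: 5 of 9 detected were higher in CD8 TCM and 0 were lower before treatment, among them LYZ (1.43) and CD14 (0.97). The 9 summed to 1592 to 4626 units in CD8 TCM and 1272 to 2771 in CD4 TCM, with S100A8, MS4A7 and FCER1G below detection, and their part in the CCR2 difference was not tested.

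CCR4 binds CCL17 and CCL22 and is found on skin-homing, type 2 helper and regulatory T cells. CD8 TCM read from 4.35 over a median of 4.64 to 5.82 before treatment, with 2 of 12 samples detected, and CD4 TCM read from 4.70 over 5.03 to 6.01, with 6 of 12 detected. The ranges overlapped, and 10 of 12 animals were lower in CD8. The adjusted p was 0.0495, and after treatment, with 3 of 12 CD8 samples and 7 of 12 CD4 samples detected, it was 0.00150 and 11 of 12 animals were lower. CCR4 passed the detection rule only through CD4 TCM, where it is higher, and most CD8 readings were at background, so no size is given. The call before treatment lies at the threshold: it was lost on the authors' deposited values (adjusted p = 0.0510), without a filter on dim probes (adjusted p = 0.149), and without each of anti-IL-15 animals 1, 2, 4, 5 and 6 and IgG1 animals 1, 2, 4 and 5 in turn (adjusted p from 0.0616 to 0.118). Of the 3 detected regulatory T cell markers, 0 were higher and 1 was lower in CD8 TCM, with sums of 105 to 133 units in CD8 TCM and 105 to 186 in CD4 TCM. FOXP3 and TIGIT were below detection, and the part of regulatory cells in the CCR4 difference was not tested.

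CCR6, the receptor for CCL20 on type 17 helper cells and B cells, did not pass the test on its bright probe, which read 13.50, 13.64 and 13.77 (lowest, median and highest) in CD8 TCM and 13.43, 13.56 and 13.82 in CD4 TCM before treatment. The difference was 0.06, with an interval of −0.11 to 0.23 (adjusted p = 0.602), and 0.03 (−0.12 to 0.19, adjusted p = 0.752) after treatment. The other passing CCR6 probe gave −0.29 ± 0.12 before treatment (adjusted p = 0.0582) and −0.45 ± 0.19 after it (0.0668), with 11 of 12 and 7 of 12 animals lower in CD8. Neither probe passed the test.

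CCR9, the receptor for CCL25 that brings T cells to the small intestine, had the widest gap of the members. Before treatment CD8 TCM read 5.20, 5.87 and 6.76 (lowest, median and highest) and CD4 TCM 6.92, 7.80 and 8.32. No CD8 sample reached the lowest CD4 sample. CD8 TCM were 3.35-fold lower, with a difference of −1.75 ± 0.14 (SE) and an adjusted p of 2.06e-08, rank 34 by p of all 9350 genes. After treatment CD8 TCM read 5.16 to 6.86 and CD4 TCM 6.65 to 8.30, with a difference of −1.55 ± 0.17 (adjusted p = 1.82e-06) and 11 of 12 animals lower in CD8. The second CCR9 probe was detected in 1 of 24 CD8 samples and 15 of 24 CD4 samples. It passed only through CD4 TCM, and its difference is not given.

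CCR10 binds CCL27 and CCL28 and is known from skin-homing T cells and from plasma cells. CD8 TCM read 4.85, 5.32 and 5.99 (lowest, median and highest) before treatment, with 10 of 12 samples detected, and CD4 TCM 4.41, 4.79 and 5.27, with 1 of 12 detected. The groups overlapped between 4.85 and 5.27, yet all 12 animals had the higher value in CD8. The adjusted p was 8.45e-05, and after treatment, with 8 of 12 CD8 samples and 1 of 12 CD4 samples detected, it was 0.000232, again higher in 12 of 12 animals. CCR10 passed the detection rule only through CD8 TCM, where it is higher, and nearly all CD4 readings were at background, so no size is given.

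**Figure D3:**
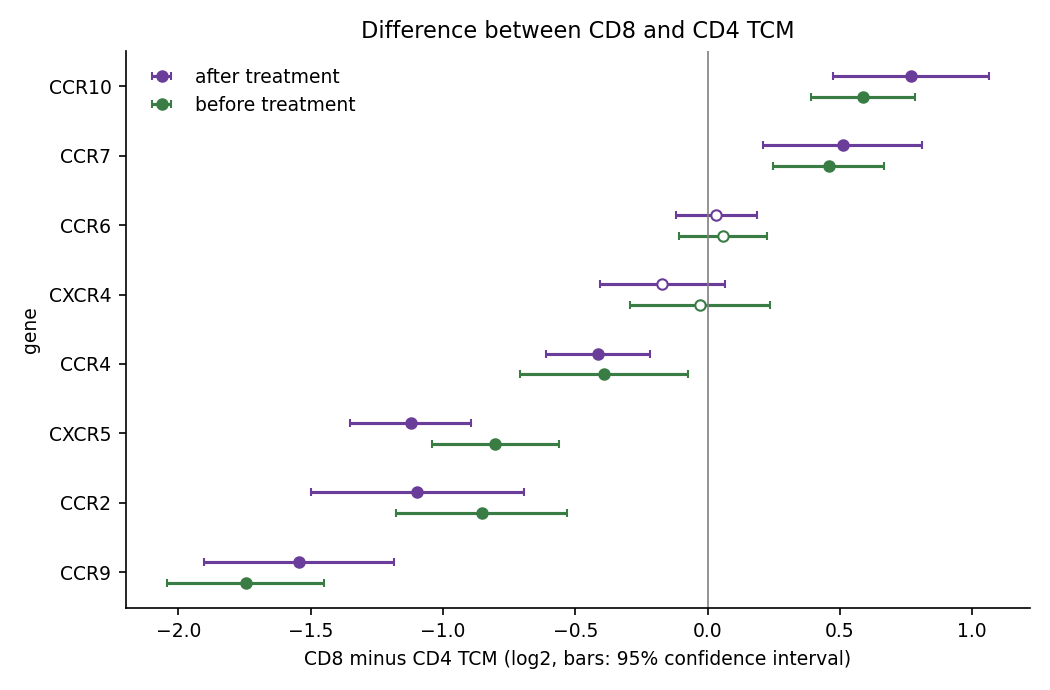
CD8 minus CD4 TCM in log2 units for the 8 tested genes after treatment (purple) and before treatment (green), with 95% confidence intervals, filled where the adjusted p was below 0.05. CCR10 and CCR7 lie right of 0, CCR4, CXCR5, CCR2 and CCR9 left of it, and the intervals of CXCR4 and CCR6 include 0 at both times. Readings of CCR10 in CD4 TCM, and of CCR4 and, after treatment, CXCR5 in CD8 TCM, were mostly at background, so their plotted sizes are uncertain.

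All 6 differences rest on a contrast in which cell type and sorted cell number move together. With the cell number as a covariate 0 of the 8 genes passed at either time. The values before treatment were then −0.79 for CXCR5, −1.20 for CCR2, −0.73 for CCR9 and 0.75 for CCR7, and after treatment −0.66 for CCR2, −1.27 for CCR9 and −0.0033 for CCR7. Before treatment CXCR5 was thus about as large as without the covariate, and CCR2 and CCR7 were larger. CCR9 at both times, and CCR2 after treatment, were smaller. CCR10 turned sign at both times, CCR4 before treatment, and CCR7 after treatment, where its value was −0.0033. Because cell numbers do not overlap between the cell types, this fit cannot decide whether a difference holds at equal cell number. The sizes also depend on the background correction. On the deposited values, which carry none, CCR9 differed by −1.02 before treatment (adjusted p = 6.91e-07 in limma) and CXCR5 by −0.30 (0.000265).

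Lists of other genes of the chemokine system were read beside all genes tested. Of those, 36.1% passed in either direction before treatment and 41.7% after it, and no list was tested against that share. Of the 5 detected among 17 other chemokine and related receptors, 0 were higher and 2 were lower in CD8 TCM at both times. They were GPR183, a receptor for oxysterols that positions lymphocytes in lymphoid tissue (−1.09 ± 0.12 before treatment), and ACKR4, a scavenger of CCL19 and CCL21 (−0.87 ± 0.13). Of 8 detected chemokine ligands, 0 were higher and 1 was lower before treatment, CXCL9 (−0.42 ± 0.09), and 1 was higher and 2 were lower after it, with list medians of −0.00026 and 0.09. There were 32 detected genes that signal downstream of the receptors. Before treatment 6 were higher and 9 were lower, with a median of 0.01, as over all genes. After treatment 7 were higher and 6 were lower (median −0.07). Those higher before treatment included the tyrosylprotein sulfotransferase TPST2 (0.72) and the G protein regulators RGS10 (0.71) and RGS14 (0.57). The small GTPase RHOA (−0.62) was among the lower.

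Of 10 detected genes of lymph node homing and egress, 1 was higher and 3 were lower before treatment (median −0.18), and 1 was higher and 6 were lower after it (median −0.31). FOXO1, a transcription factor that maintains homing receptors (−0.62), LEF1 (−0.55) and the integrin chain ITGB1 (−0.37) were lower before treatment, and the integrin chain ITGAL (0.44) was higher. Of 13 transcription factors of T cell subsets, 3 were higher and 3 lower before treatment, and 4 and 3 after it. EOMES (2.51) and RUNX3 (0.63) of the CD8 lineage were higher, and MAF (−1.91), which acts in follicular and type 2 helper cells, and RORA (−0.48) were lower.

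The second question was whether the receptors changed after anti-IL-15, or after IgG1. No member passed the test in CD8 TCM: 0 of 7 after anti-IL-15, where 0.174% of 8622 genes passed, 0 of 7 after IgG1, where 0% passed, and 0 of 7 for the difference between the antibodies, where 0% passed. In CD4 TCM, 0 of 7 passed after anti-IL-15, against 0.0336% of 8919 genes, 0 of 7 after IgG1 (0%) and 0 of 7 for the difference (0%). Nor did any of 8 differ in its anti-IL-15 change between CD8 and CD4 TCM (0% of 9350 genes). These are limma results with Benjamini-Hochberg adjustment over all genes. An unadjusted p below 0.05 was given by 1 of 7 members in CD8 TCM after anti-IL-15 (9.42% of all genes), 1 of 7 after IgG1 (7.02%), 1 of 7 for the difference between the antibodies (7.57%) and 1 of 7 in CD4 TCM after anti-IL-15 (5.7%). In the other 3 comparisons it was 0.

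**Figure D4:**
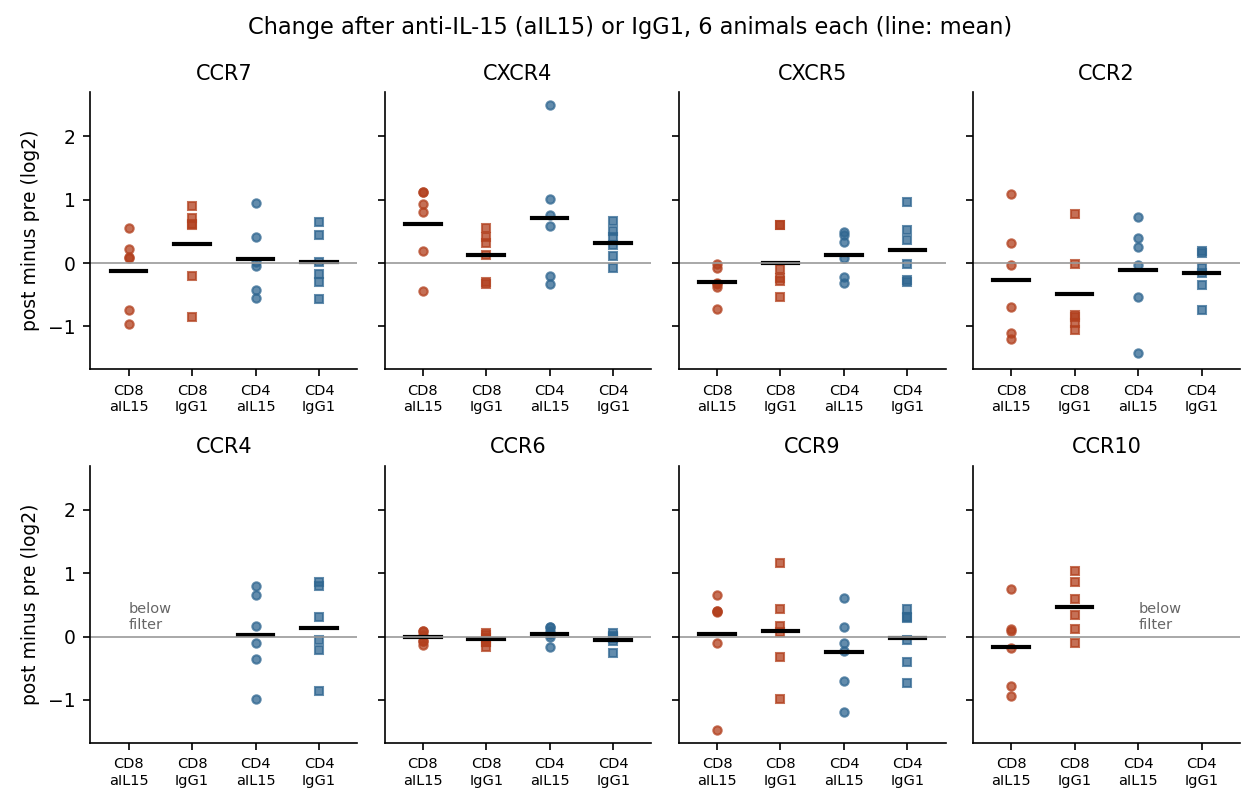
Post minus pre difference in log2 intensity in each animal after anti-IL-15 (aIL15, circles) or IgG1 (squares) in CD8 (red) and CD4 TCM (blue), with the mean of 6 animals as a black line. Animals fall on both sides of 0 for most genes, CXCR5 in CD8 after anti-IL-15 lies below 0 in 6 of 6, and 1 CD4 sample pair of CXCR4 differs by 2.50.

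CXCR4 had the lowest p of the members after anti-IL-15 in both cell types. In CD8 TCM of anti-IL-15 animals it read 7.67, 8.20 and 8.55 (lowest, median and highest) after treatment and 7.10, 7.46 and 8.11 before it. It was higher after treatment in 5 of 6 animals, and the change was 0.62 ± 0.19 (SE), with an unadjusted p of 0.00451 and an adjusted p of 0.300 in limma. In CD8 TCM of IgG1 animals it read 6.13, 8.11 and 9.22 after treatment and 6.43, 7.89 and 8.68 before it, a change of 0.13 ± 0.19 (adjusted p = 0.875). The difference between the antibodies was 0.49 with an interval of −0.08 to 1.06 (adjusted p = 0.721).

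In CD4 TCM of anti-IL-15 animals CXCR4 read 7.28, 8.33 and 9.13 after treatment and 6.63, 7.51 and 8.71 before it, higher after treatment in 4 of 6 animals. That change was 0.72 ± 0.25 (SE; adjusted p = 0.686). Animal 3 alone differed by 2.50, and without it the value was 0.36. The CD4 samples of animal 3 were also the least like the other CD4 samples over all genes. In CD4 TCM of IgG1 animals CXCR4 read 6.79, 8.31 and 8.68 after treatment and 6.13, 8.11 and 8.68 before it, higher in 5 of 6 animals, with a change of 0.32 ± 0.25 (unadjusted p = 0.218 in limma). The difference between antibodies was 0.40 (−0.33 to 1.14), and the anti-IL-15 change in CD8 less that in CD4 was −0.10 (−0.78 to 0.58).

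By median, CXCR4 after treatment stood at 8.33 in CD4 TCM and 8.20 in CD8 TCM of anti-IL-15 animals, and at 8.31 in CD4 TCM and 8.11 in CD8 TCM of IgG1 animals. Before treatment the medians were 7.51 in CD4 TCM and 7.46 in CD8 TCM of anti-IL-15 animals, below 8.11 in CD4 TCM and 7.89 in CD8 TCM of IgG1 animals. Each gap between neighbours in the order of these medians was smaller than the SD of both groups it separates. Such gaps between sorted medians leave out the pairing within animals and do not test whether groups differ. The widest gap lay between 7.89 (CD8 TCM of IgG1 animals, SD 0.85) and 7.51 (CD4 TCM of anti-IL-15 animals, SD 0.67). IgG1 animal 6 read 6.13 and 6.79 in CD8 and CD4 TCM after treatment and 6.43 and 6.13 before it, the lowest of its group each time.

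**Figure D5:**
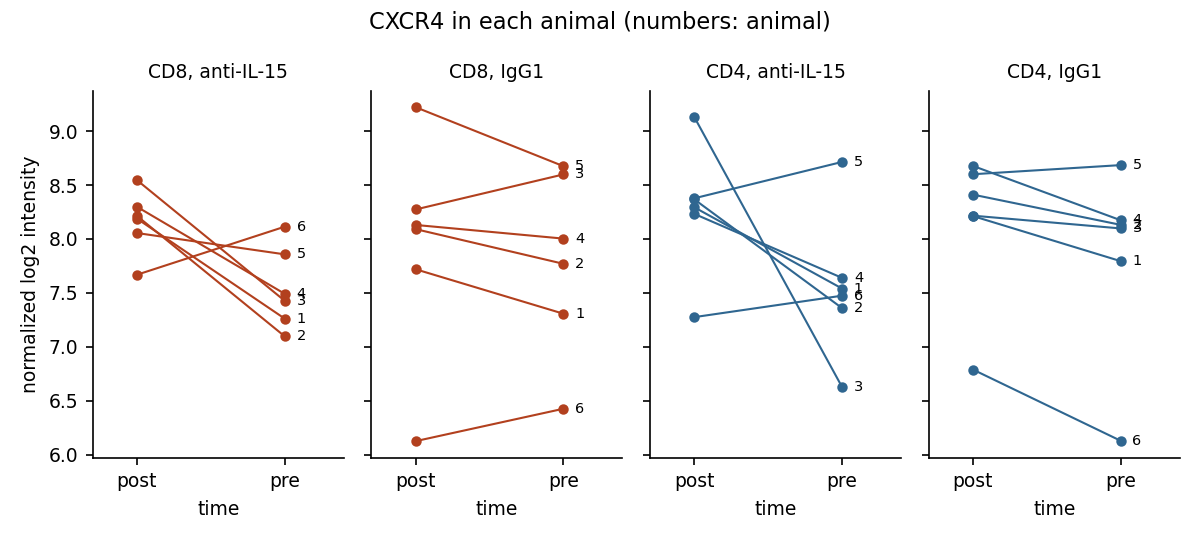
CXCR4 in each animal after (left) and before treatment (right) as normalized log2 intensity, with the animal's number beside the pre-treatment point. In CD8 TCM 5 of 6 anti-IL-15 animals and 4 of 6 IgG1 animals were higher after treatment, and IgG1 animal 6 lies apart below the others.

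The second CXCR4 probe, which passed only in CD4 TCM and with 6 of 24 samples, gave 0.02 ± 0.19 after anti-IL-15 and 0.16 ± 0.19 after IgG1. The NK cell and the monocyte and dendritic cell marker lists are given beside CXCR4. Of the NK list, the 8 detected of 10 summed to 1348 to 2672 units in CD8 TCM after anti-IL-15 and to 867 to 1477 before it. They summed to 1245 to 2889.9 units after IgG1 and 968 to 1889.6 before it. GNLY, a cytotoxic granule protein that CD8 memory cells also carry, was the 1 of 8 that passed after anti-IL-15 (1.21 ± 0.21, adjusted p = 0.0428). NCR1 and XCL1 were below detection, and the part of NK cells in the CXCR4 readings was not tested. The 9 detected monocyte and dendritic cell markers summed to 1974 to 7976 units in CD8 TCM after anti-IL-15 and to 1823 to 4208 before it. After IgG1 they summed to 1912 to 3173 units, and to 1592 to 4626 before it. Their median change in CD8 TCM was 0.57 after anti-IL-15 and −0.20 after IgG1, beside 0.40 and 0.04 for the NK list. None of the 9 passed in either comparison, and their part in the CXCR4 readings was not tested.

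CCR10 was the other member with an unadjusted p below 0.05. In CD8 TCM of anti-IL-15 animals it read 4.64, 5.12 and 6.08 after treatment and 5.12, 5.36 and 5.94 before it, with 3 of 6 animals higher and a change of −0.16 ± 0.20. In CD8 TCM of IgG1 animals it read 4.75, 6.03 and 6.53 after treatment and 4.85, 5.19 and 5.99 before it, with 5 of 6 animals higher and a change of 0.47 ± 0.20 (adjusted p = 0.687 in limma). The anti-IL-15 change less the IgG1 change was −0.63, with an interval of −1.22 to −0.04 and an adjusted p of 0.642. With 1 animal left out at a time, the anti-IL-15 change ran from −0.34 to −0.0022. The difference between the antibodies then ran from −0.81 to −0.47. Both were smallest without anti-IL-15 animal 1, whose CD8 sample before treatment was the high one at 5.94. The groups overlapped at each time.

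CXCR5 was lower after anti-IL-15 in CD8 TCM of 6 of 6 animals, at 4.66, 4.77 and 4.95 after treatment, when 0 of 6 samples were detected, and 4.92, 5.01 and 5.41 before it, when 3 of 6 were. It did not pass the test (adjusted p = 0.557), and its size is not given because the later reading is only a bound. In CD8 TCM of IgG1 animals it read 4.68, 4.96 and 5.38 after treatment, with 2 of 6 samples detected, and 4.71, 4.97 and 5.34 before it, with 3 of 6 detected. It was lower in 4 of those 6 animals (adjusted p = 0.994 in limma), and the difference between the antibodies did not pass either (adjusted p = 0.783). In CD4 TCM it read 5.58, 5.72 and 6.13 after anti-IL-15 and 5.18, 5.79 and 6.00 before it, a change of 0.14 ± 0.17. In CD4 TCM after IgG1 the change was 0.21 ± 0.17.

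The remaining receptors did not pass in any antibody comparison either. The post minus pre difference of CCR7 was −0.12 ± 0.22 after anti-IL-15 and 0.30 ± 0.22 after IgG1 in CD8 TCM, and 0.06 ± 0.19 and 0.01 ± 0.19 in CD4 TCM. That of CCR2 on the tested probe was −0.27 ± 0.27 after anti-IL-15 and −0.48 ± 0.27 after IgG1 in CD8 TCM, where 5 of 6 IgG1 animals were lower. In CD4 TCM it was −0.10 ± 0.21 and −0.16 ± 0.21. Without anti-IL-15 animal 3, whose CD4 sample after treatment was low, the CD4 value after anti-IL-15 was 0.16. In CD8 TCM the second CCR2 probe gave −0.15 ± 0.24 after anti-IL-15 and −0.33 ± 0.24 after IgG1. The third gave −0.04 ± 0.22 and 0.02 ± 0.22. On each of these probes 3 of 6 IgG1 animals were lower. For CCR9 the post minus pre difference was 0.04 ± 0.26 after anti-IL-15 and 0.09 ± 0.26 after IgG1 in CD8 TCM, and −0.24 ± 0.20 and −0.02 ± 0.20 in CD4 TCM. CCR4 was tested in CD4 TCM alone, with differences of 0.03 ± 0.22 and 0.14 ± 0.22. CCR6 on its bright probe differed by −0.01 after anti-IL-15 and −0.04 after IgG1 in CD8 TCM (SE 0.10), and by 0.04 and −0.05 in CD4 TCM (SE 0.11). The other passing CCR6 probe gave −0.26 and −0.31 in CD8 TCM (SE 0.19), and −0.11 and −0.14 in CD4 TCM (SE 0.18), and did not pass either. Whether the bright probe reads CCR6 alone was not tested.

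None of these intervals shows that a receptor stayed the same: over the members they reached from −0.84 to 1.02 for CD8 TCM after anti-IL-15 and from −0.65 to 1.24 for CD4 TCM. Over the 5 lists of other chemokine receptors, ligands, downstream signalling, lymph node homing and T cell transcription factors, 0 genes passed in any of the 6 antibody comparisons. The list medians for CD8 TCM after anti-IL-15 were 0.24 over 3 other receptors, 0.14 over 7 ligands, −0.00038 over 30 signalling genes, −0.05 over 9 homing genes and 0.01 over 12 transcription factors, beside −0.02 over all genes. In CD4 TCM after anti-IL-15 they were 0.18, 0.13, −0.02, −0.02 and 0.14, beside −0.03 over all genes.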

How the data were processed

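The deposited non-normalized table holds bead intensity in whole numbers with, per the file headers, a detection p-value for each probe and array. The authors' deposited value table holds log2 values, 99.9% of which lay within 0.001 of quantile-normalized log2 intensity without background correction; limma is named in the submitters' processing notes without a version. The authors amplified equal RNA inputs, per the labels' protocols. For the tests, the intensities of all 49 arrays went through neqc (limma 3.58.1, R 4.3.3, offset 16), which subtracts background, equalizes quantiles and takes log2. Readings of 0, 49 in number, were set missing. Of 47230 probes, 30113 had 1 symbol, 8 had several and 17109 had none. Symbols came from the platform annotation, which names no genome build used here, so no positions or sequences are given. Genes were tested with limma (lmFit, eBayes) with the animal as a block. The tests covered 8622 genes in CD8, 8919 in CD4 and, across cell types, the 9350 detected in either. The p-values were adjusted by Benjamini-Hochberg at a threshold of 0.05. Intervals are 95%. The number of arrays limits the precision.

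Groups and pairs came from the labels, which name the animal; a misspelt time point was read as post-treatment. Samples of one animal after and before treatment correlated, as deviations from their group means, with medians of 0.403 (CD8) and 0.224 (CD4, lowest 0.00986) for the anti-IL-15 arm and 0.386 (CD8) and 0.401 (CD4) for the IgG1 arm. All 10 members were named, and from the other lists up to 4 genes with the lowest p past the threshold. Marker genes are named beside a receptor result, in whichever direction they differ. The members and lists were chosen with earlier results of these data known. Alternatives were the deposited table, values without background correction, normexp (offset 50), a stricter detection filter or none, other probes, a variance trend, array weights, sorted cell number as a covariate, each animal left out, no replicate block or a random one, and a threshold of 0.1. The code was tested on simulated data. Figures used matplotlib 3.10.9 in Python 3.11.15.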

Additional observations from a re-analysis of the deposited data

Results flagged for a closer look

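In 4 of 56 sets of 6 samples of a tested receptor, 1 animal lay far from the other 5, and chance gives about 1 in 20. CCR10 in CD8 TCM of anti-IL-15 animal 1 before treatment was high at 5.94, against 5.12 to 5.41 in the others. CCR2 in CD4 TCM of anti-IL-15 animal 3 after treatment was low at 4.97, against 6.32 to 7.01. CXCR4 in CD4 TCM of IgG1 animal 6 was low both after treatment (6.79, against 8.21 to 8.68) and before it (6.13, against 7.79 to 8.68). Without anti-IL-15 animal 1 the CCR10 difference between CD8 and CD4 TCM before treatment kept its call (adjusted p = 0.000252 in limma). The CCR10 change in CD8 TCM after anti-IL-15 was −0.0022 without that animal, against −0.16 with it. Without anti-IL-15 animal 3 the CCR2 change in CD4 TCM after anti-IL-15 was 0.16, against −0.10 with it, the CD8 against CD4 difference after treatment was −1.24 (1.69e-05), and without IgG1 animal 6 the CXCR4 change in CD4 TCM after IgG1 was 0.25.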

How the results depend on the processing

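Of 1791 values of the members under the alternatives, 1764 kept their side of the threshold and, where they had passed, their direction. Most of the 1791 belong to comparisons where no member had passed, so that share says little about the calls. Another 21 lost a call and 6 turned sign, all for CD8 against CD4 TCM. Among the kept values, 80 that had not passed changed sign. With sorted cell number as a covariate, 0 of 8 members passed for CD8 against CD4 TCM before treatment and 0 after it, and over all genes 44 and 16 passed, against 3377 and 3897; the ranges of cell number do not overlap between the cell types. The sign then turned for CCR10 (−0.29 before and −0.41 after treatment), CCR4 (0.27 before) and CCR7 (−0.0033 after), and the cause was not tested. The other values that had passed kept their direction, with CXCR5 at −0.79 and CCR7 at 0.75 before treatment, CCR2 at −1.20 before and −0.66 after, and CCR9 at −0.73 before and −1.27 after; CCR4 was −0.21 after treatment. The CCR2 probe on another transcript gave 0.20 before and 0.23 after treatment. CCR4 before treatment also lost its call without background correction, without the dim-probe filter and in the fit with no replicate block (adjusted p = 0.0686 in limma). In that fit 5 of 8 members passed before treatment, against 2782 of 9350 genes, and no other member's call changed. With a random replicate block 6 of 8 passed at both times, against 3294 genes before and 3835 after treatment. The stricter filter left 6 members, without CCR4 and CCR10, of which 4 passed at both times. Over all 6968 genes it gave 3221 before and 3671 after treatment. Leaving out each animal gave 5 to 6 members before and 6 after treatment, against 3044 to 3813 and 3564 to 3894 of 9350 genes. No member passed in an antibody comparison under any alternative. Over all genes, the count for CD8 TCM after anti-IL-15 ran from 0 to 29 (1 to 14 with an animal left out), against 15, and for CD4 TCM from 0 to 5 (0 to 17), against 3; for CD4 TCM after IgG1 it reached 1, against 0. Arrays and probes near background limit CXCR3, CXCR6, CCR4 and CCR10, and also CXCR5 and CCR2 in CD8 TCM.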
